A study of Mus musculus with 3 samples.

Results

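Circadian clock genes were followed through the cell types of the mouse cornea and limbus, the ring of tissue around the cornea where its epithelial stem cells lie. The 10 genes were Arntl, Per1, Per2, Per3, Ciart, Nr1d1, Nr1d2, Dbp, Tef and Hlf, taken by gene symbol from the 32285 genes of the deposited matrices, and all 10 were found. They include the activator Arntl and several repressors as well as output factors, so they are called clock genes here. They were selected on an earlier result from these same libraries, the difference of Dbp between saline-treated and uninjured stroma, so their values are a description and carry no test.

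There were 3 droplet single-cell libraries, each from 1 wild-type mouse. In the first, the mouse had been injured with nitrogen mustard (NM), an alkylating agent that burns the ocular surface, and treated with losartan, an angiotensin receptor blocker (the losartan library). In the second, the NM injury was followed by saline (the saline library), and the third came from an uninjured mouse. The strain, sex and age of the mice, the delay between injury and collection, how losartan was dosed, and the hour at which each eye was collected are not given in the sources used here. With 1 library per group there is no replicate check on any difference, and an effect of the collection hour cannot be told apart from an effect of injury or treatment.

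The clock is a feedback loop that runs in almost every cell. The protein of Arntl, called BMAL1, pairs with CLOCK and switches on genes with an E-box sequence, among them the Per genes, Ciart, Nr1d1, Nr1d2, Dbp and Tef. The PER and CIART proteins shut this pair down, and the REV-ERB receptors made by Nr1d1 and Nr1d2 repress Arntl, so that in most mouse tissues Arntl peaks in the opposite part of the day from Dbp and Nr1d1. DBP, TEF and HLF form the PAR-bZIP family, which carries the rhythm to other genes through a sequence called the D-box. In the mouse cornea the division of epithelial cells is known to follow the time of day.

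The promoter windows show where these sequences lie. RefSeq windows on GRCm38.p6, each running from 250 bases before to 50 bases after a transcription start, were matched for 9 of the 10 genes in 12 windows; Per2 had none in the table. Both strands were searched for 4 motifs: the E-box CACGTG, the D-box TTATGTAA or TTACGTAA, the core of the REV-ERB and ROR element (RORE) TAGGTCA or TGGGTCA, and the cAMP response element TGACGTCA. A clock gene counted when any of its windows matched, and Per1, Arntl and Tef had 2 windows each. The shares given for all genes are per window, so the measures differ and were not tested against each other. The E-box was in windows of 3 of the 9 genes (Ciart, Per1 and Tef), against 7.15% of 32851 promoter windows of all genes. The D-box was in 1 of 9 (Per3), against 1.06% of all windows. The RORE core was in 1 of 9 (Arntl), against 6.45%, and the cAMP response element in 1 of 9 (Hlf), against 1.79%. The 4 windows below, written 5′ to 3′, show the gene with the most E-boxes, the gene with D-boxes, the gene with the RORE core and Dbp, whose window held no match. No match says only that these letters are not in this window.
Ciart, E-boxes in capitals, chr3:95882179-95882478, minus strand: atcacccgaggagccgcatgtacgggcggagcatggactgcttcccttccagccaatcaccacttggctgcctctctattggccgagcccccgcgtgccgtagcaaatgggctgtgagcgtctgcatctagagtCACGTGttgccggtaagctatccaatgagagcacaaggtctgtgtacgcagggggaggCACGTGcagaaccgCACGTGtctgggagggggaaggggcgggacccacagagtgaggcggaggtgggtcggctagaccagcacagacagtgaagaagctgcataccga
Per3, D-boxes in capitals, chr4:151044616-151044915, minus strand: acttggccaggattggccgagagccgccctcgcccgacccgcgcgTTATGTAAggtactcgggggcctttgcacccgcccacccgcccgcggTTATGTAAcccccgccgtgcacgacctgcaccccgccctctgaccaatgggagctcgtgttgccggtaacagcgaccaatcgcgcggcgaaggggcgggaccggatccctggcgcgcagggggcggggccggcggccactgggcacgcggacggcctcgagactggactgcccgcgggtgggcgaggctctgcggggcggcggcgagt
Arntl, RORE core in capitals, chr7:113207261-113207560, plus strand: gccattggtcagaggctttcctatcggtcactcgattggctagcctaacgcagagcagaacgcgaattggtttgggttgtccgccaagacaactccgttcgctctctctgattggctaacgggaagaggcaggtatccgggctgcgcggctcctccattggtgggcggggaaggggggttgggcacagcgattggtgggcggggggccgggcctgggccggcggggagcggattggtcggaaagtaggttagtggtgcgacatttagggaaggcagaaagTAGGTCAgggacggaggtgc
Dbp, no match, chr7:45704997-45705296, plus strand: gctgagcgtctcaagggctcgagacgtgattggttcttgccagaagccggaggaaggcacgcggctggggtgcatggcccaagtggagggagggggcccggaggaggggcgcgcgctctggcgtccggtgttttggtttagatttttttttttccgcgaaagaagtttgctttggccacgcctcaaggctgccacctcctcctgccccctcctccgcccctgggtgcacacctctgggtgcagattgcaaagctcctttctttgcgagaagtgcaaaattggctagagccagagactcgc
Ciart had 3 E-boxes, whose first bases lay 116, 58 and 44 bases before the start, and Per3 had 2 D-boxes, 205 and 158 bases before it. The RORE core of Arntl began 30 bases after the start.

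The losartan, saline and uninjured libraries held 5887, 6814 and 13270 barcodes with 92753670, 83155441 and 177003042 UMIs (unique molecular identifiers, which count captured RNA molecules). After filtering, 4919, 5800 and 11233 cells were left, with medians of 6213, 4107 and 11534 UMIs. The libraries shared few cell barcodes: 7 between losartan and saline, 28 between losartan and uninjured, and 21 between saline and uninjured. Cells were clustered, clusters were named from marker genes, and the UMIs of each class in each library were summed and scaled to a common total (CPM, a unit per class and library). This takes out differences in the total UMIs of a class but not in depth per cell, since deep cells weigh more in a sum. Epithelial-like cells numbered 1929, 1153 and 8510 and showed 13 of 13 epithelial markers in every library. Stromal fibroblast-like cells numbered 728, 702 and 428 and showed 11 of 11 fibroblast markers in every library. Any UMI in a class sum counted as shown, and losartan and uninjured epithelial-like cells also showed 11 of 11 fibroblast markers. The summed levels differed more. Fibroblast markers summed to 53799 CPM in saline stroma and 88314 CPM in uninjured stroma, against 47.5 and 64.6 CPM in the epithelium of these libraries. All intervals given are 95% intervals and cover counting error only. A gene counted as higher or lower when CPM + 5 differed at least 2-fold, among genes with a mean of 5 CPM or more.

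In the epithelium, the PAR-bZIP factors and 2 of their partners in the loop were lower in both injured libraries. Against the uninjured library, 5 of the 10 clock genes were lower in the losartan library and none was higher, where 7.35% of 9644 genes were lower and 7.46% higher. The same 5 genes were lower in the saline library and none was higher, where 7.15% of genes were lower and 9.85% higher. The genes were Hlf, Dbp, Nr1d1, Per3 and Tef. The median log2 ratio of the 10 was -0.78 for losartan and -0.89 for saline against uninjured, where the medians of all genes were -0.03 and 0.03. Because the genes were chosen with such differences known, nothing is read from these shares. Different clusters made up the epithelium: clusters 4, 5 and 15 in the injured libraries and clusters 1, 2, 6, 10, 11, 12 and 13 in the uninjured library.

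Hlf (chr11:90336536-90390895, minus strand, GRCm38), a PAR-bZIP factor, showed the widest gap. It was at 45.2 CPM in losartan epithelium (43.5 to 46.9), 36.3 CPM in saline (34.5 to 38.1) and 591 CPM in uninjured (587 to 595). The uninjured level lay far above both injured levels, by 13.1-fold for losartan (12.6 to 13.6) and 16.3-fold for saline (15.5 to 17.2). Dbp (chr7:45705088-45710203, plus strand), the best known output factor of the loop, was at 23.9 CPM in losartan (1423 UMIs), 24.9 CPM in saline (1065 UMIs) and 96.9 CPM in uninjured epithelium (12885 UMIs). It was 4.05-fold lower in losartan (3.83 to 4.28) and 3.90-fold lower in saline (3.66 to 4.15), and the interval of the losartan to saline ratio held 1 (0.889 to 1.04). By cluster that ratio of Dbp went both ways. It was 1.12 in cluster 4 (1.01 to 1.25) and 0.740 in cluster 5 (0.653 to 0.839), and its interval held 1 in cluster 15 (0.751 to 2.82). Tef (chr15:81802421-81826863, plus strand), the third of the family, was at 19.7 CPM in losartan, 20 CPM in saline and 48.2 CPM in uninjured, 2.45-fold and 2.41-fold lower.

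The REV-ERB receptors were unequal. Nr1d1 (chr11:98767932-98775333, minus strand) was at 38.2 CPM in losartan, 30.7 CPM in saline and 110.3 CPM in uninjured epithelium. That was 2.88-fold lower in losartan (2.76 to 3.02) and 3.60-fold lower in saline (3.40 to 3.81). Nr1d2 (chr14:18204054-18239127, minus strand) lay at 38.5, 32.2 and 54.8 CPM in losartan, saline and uninjured epithelium, 1.42-fold and 1.70-fold below uninjured, which is under the 2-fold limit. Nr1d1 overlaps Thra on the opposite strand and Dbp overlaps Sphk2 likewise, and the use of strand in counting is not given in the sources used here.

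Among the repressors, Per3 differed and Per1 and Per2 did not pass the limit. Per3 (chr4:151003652-151044665, minus strand) was at 17 CPM in losartan, 21.6 CPM in saline and 57.8 CPM in uninjured epithelium, 3.40-fold lower in losartan (3.18 to 3.63) and 2.67-fold lower in saline (2.50 to 2.86). It overlaps Camta1 on the same strand, so its count is uncertain where reads could be split. Per1 (chr11:69095217-69109960, plus strand), which also answers directly to stress and hormone signals, was at 22.2, 22.3 and 18.3 CPM in losartan, saline and uninjured epithelium. Per2 (chr1:91415982-91459324, minus strand) was at 8.29, 9.87 and 7.27 CPM in the same order. Ciart (chr3:95878503-95882251, minus strand), a repressor of the BMAL1 pair, was at 8.36, 8.61 and 3.64 CPM. Its plain CPM ratio to uninjured was 2.30 in losartan (2.02 to 2.61) and 2.37 in saline (2.06 to 2.71), but on the CPM + 5 scale its log2 ratios of 0.63 and 0.66 stayed under the limit.

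Arntl (chr7:113207465-113314126, plus strand), the activator, set the injured libraries apart from each other. It was at 22.1 CPM in losartan epithelium (1312 UMIs), 12.7 CPM in saline (543 UMIs) and 21.2 CPM in uninjured (2817 UMIs). The losartan level was 1.74 times the saline level (1.57 to 1.93), and its ratio to uninjured was 1.04, with an interval that held 1 (0.975 to 1.11). This was the widest gap among the 10 genes between losartan and saline epithelium, where 0 of the 10 passed the 2-fold limit and 1.74% of all genes did. At a 1.5-fold limit 1 of the 10 passed, where 6.72% of all genes did.

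**Figure D1:**
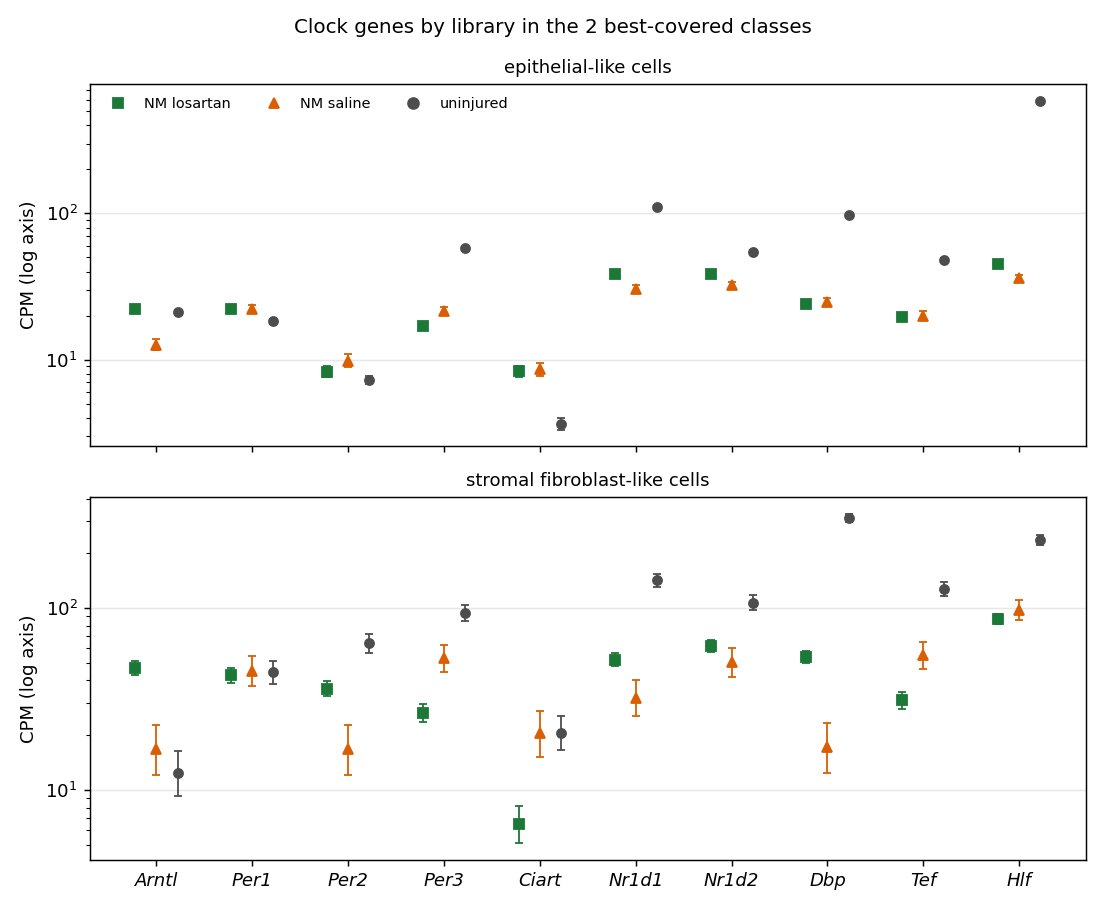
Level of each clock gene in CPM (log axis) in epithelial-like cells (top) and stromal fibroblast-like cells (bottom) of the losartan, saline and uninjured libraries, with exact Poisson 95% intervals that cover counting error only. Dbp, Nr1d1, Tef and Hlf are highest in the uninjured library in both classes, and Arntl is highest in the losartan library in the stroma, at 46.8 CPM.

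Other values moved with the libraries in the epithelium. Of 12 immediate early genes, which respond within minutes to stress and to tissue digestion, 8 were lower in losartan and 7 in saline against uninjured. Of all genes, 7.35% were lower in losartan and 7.15% in saline. Fos, one of the 12, was at 591 CPM in losartan, 682 CPM in saline and 1984 CPM in uninjured epithelium. Summed markers of macrophages or monocytes reached 1039 CPM in losartan, 1876 CPM in saline and 399 CPM in uninjured epithelium, with 13, 13 and 12 of 13 markers detected and Fcgr1 at 0 in uninjured. Summed neutrophil markers reached 76.9, 183 and 6.01 CPM in the same order, and Retnlg, Clec4d, Trem1 and Mmp8 were at 0 in uninjured. The part of these values in the clock gene differences was not tested.

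In the stroma, output genes were lower in both injured libraries. Against uninjured, 6 of the 10 genes were lower and 1 was higher in the losartan library, where 7.68% of 10840 genes were lower and 7.41% higher. In the saline library 6 were lower and none was higher, where 11.3% of genes were lower and 7.5% higher. Dbp, Nr1d1, Tef and Hlf were lower in both. Per2 and Nr1d2 passed the limit in saline, Per3 and Ciart in losartan, and Arntl was the gene that was higher in losartan. Below the limit, the ratio to uninjured was 0.564 for Per2 (0.482 to 0.661) and 0.580 for Nr1d2 (0.514 to 0.656) in losartan and 0.566 for Per3 in saline (0.460 to 0.693). Those 3 genes were thus below uninjured in both injured libraries, and whether the libraries differ in which genes changed was not tested. The median of all genes itself lay at -0.10 for losartan and -0.33 for saline against uninjured on the log2 scale. With median-of-ratios scaling, which takes such a shift out, 3 genes were lower in saline stroma: Dbp, Per2 and Nr1d1.

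Dbp was at 53.9 CPM in losartan stroma (49.7 to 58.4, 605 UMIs), 17.3 CPM in saline (12.4 to 23.3, 42 UMIs) and 313 CPM in uninjured (296 to 331, 1286 UMIs). The counting intervals of the 3 libraries did not overlap, but the gap between saline and uninjured is the value the genes were selected on. Within cluster 9, which held cells of all 3 libraries, the losartan to saline ratio of Dbp was 1.14, with an interval that held 1 (0.548 to 2.25). Dbp was 5.81-fold lower in losartan (5.27 to 6.41) and 18.1-fold lower in saline (13.3 to 25.3) than in uninjured stroma. Hlf was at 86.9, 97.9 and 236 CPM in losartan, saline and uninjured stroma, 2.72-fold and 2.41-fold lower. Tef was at 31.2, 55.1 and 127 CPM, 4.08-fold lower in losartan and 2.31-fold lower in saline. The ratio of Hlf to uninjured was nearer 1 in the stroma than in the epithelium, and that of Dbp was farther from 1.

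Nr1d1 was at 52.1 CPM in losartan stroma, 32.1 CPM in saline and 142 CPM in uninjured, 2.73-fold and 4.44-fold lower. Nr1d2 was at 62.0, 50.6 and 106.9 CPM, and passed the limit in saline alone, by 2.11-fold (1.73 to 2.60). Both receptors were therefore highest in uninjured stroma. Per2 was at 36.1, 16.9 and 64.0 CPM in losartan, saline and uninjured stroma, 3.80-fold lower in saline (2.72 to 5.41). Per3 was at 26.6, 53.1 and 93.7 CPM, 3.53-fold lower in losartan (3.03 to 4.12). Per1 was at 42.6, 45.2 and 44.5 CPM, with both ratio intervals against uninjured holding 1.

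Ciart and Arntl ran in opposite directions in losartan stroma. Ciart was at 6.51 CPM in losartan (73 UMIs), 20.6 CPM in saline (50 UMIs) and 20.7 CPM in uninjured (85 UMIs), 3.18-fold lower in losartan than in uninjured (2.30 to 4.41). Arntl was at 46.8 CPM in losartan (525 UMIs), 16.9 CPM in saline (41 UMIs) and 12.4 CPM in uninjured (51 UMIs), 3.77-fold higher in losartan than in uninjured (2.82 to 5.13). Few cells carried it: at least 50% of the Arntl UMIs lay in 46 of 728 losartan, 7 of 702 saline and 5 of 428 uninjured cells. The intervals do not cover such clumping. Between losartan and saline stroma, 2 of the 10 genes were higher and 1 was lower, where 12.9% of all genes were higher and 8.59% lower. Dbp was 3.12-fold higher in losartan (2.28 to 4.38), Arntl 2.77-fold higher (2.02 to 3.91) and Ciart 3.16-fold lower (2.16 to 4.59). At a 1.5-fold limit 7 of the 10 passed between losartan and saline stroma, where 45.5% of all genes did.

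The stroma was made of different clusters in the 3 libraries. In the losartan library cluster 17 (led by Mmp3, Igfbp4 and Timp1) held 372 cells and 89.2% of the stromal UMIs, and cluster 9 (led by Apod, Gm29585 and Dcn) held 313 cells and 6.36%. In the saline library cluster 9 held 684 cells and 79.9% of the UMIs, with a median of 2745 UMIs per cell. In the uninjured library cluster 19 held 293 cells and 82.5% of the UMIs, cluster 23 held 70 cells, and cluster 9 held 63 cells. Cells of cluster 17 had a median of 26478 UMIs, so depth differed along with cluster. Summed macrophage or monocyte markers in the stroma reached 232 CPM in losartan, 1662 CPM in saline and 766 CPM in uninjured, with 11, 12 and 8 of 13 detected; Ccr2 was at 0 in all 3 libraries, and Adgre1 in losartan and uninjured. Mitochondrial UMIs made up 1.94% in losartan, 4.0% in saline and 1.86% in uninjured stroma. The part of these values in the stromal differences was not tested.

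Cluster 9 held cells of all 3 libraries. There Dbp was at 18.2 CPM in losartan (13 UMIs), 15.96 CPM in saline (31 UMIs) and 106 CPM in uninjured (14 UMIs). Arntl was at 9.81 CPM in losartan (7 UMIs), 6.18 CPM in saline (12 UMIs) and at 0 UMIs in uninjured. Ciart was at 22.4 CPM in losartan (16 UMIs), 24.7 CPM in saline (48 UMIs) and 15.1 CPM in uninjured (2 UMIs). The losartan to saline ratio was 1.14 for Dbp (0.548 to 2.25), 1.59 for Arntl (0.530 to 4.37) and 0.907 for Ciart (0.481 to 1.63), and every one of these 3 intervals held 1. It lay below 1 with its whole interval for Per1 at 0.538 (0.293 to 0.927), Per3 at 0.461 (0.272 to 0.745) and Tef at 0.499 (0.294 to 0.810). Losartan cells of cluster 17 held 50.3 CPM of Arntl, 53.5 CPM of Dbp and 5.00 CPM of Ciart. The saline library had 18 stromal cells outside cluster 9, of which 16 were in cluster 17, and they held 29 of its 41 stromal Arntl UMIs. In those 18 cells Arntl was at 59.3 CPM (39.7 to 85.1), Dbp at 22.5 CPM (11.2 to 40.2, 11 UMIs) and Ciart at 4.09 CPM (0.495 to 14.8, 2 UMIs). The Arntl and Ciart intervals of these few saline cells held the losartan cluster 17 levels, and the Dbp interval lay below it. The ratio to uninjured in cluster 9 was 0.172 for Dbp in losartan (0.0747 to 0.396) and 0.151 in saline (0.0781 to 0.307).

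**Figure D2:**
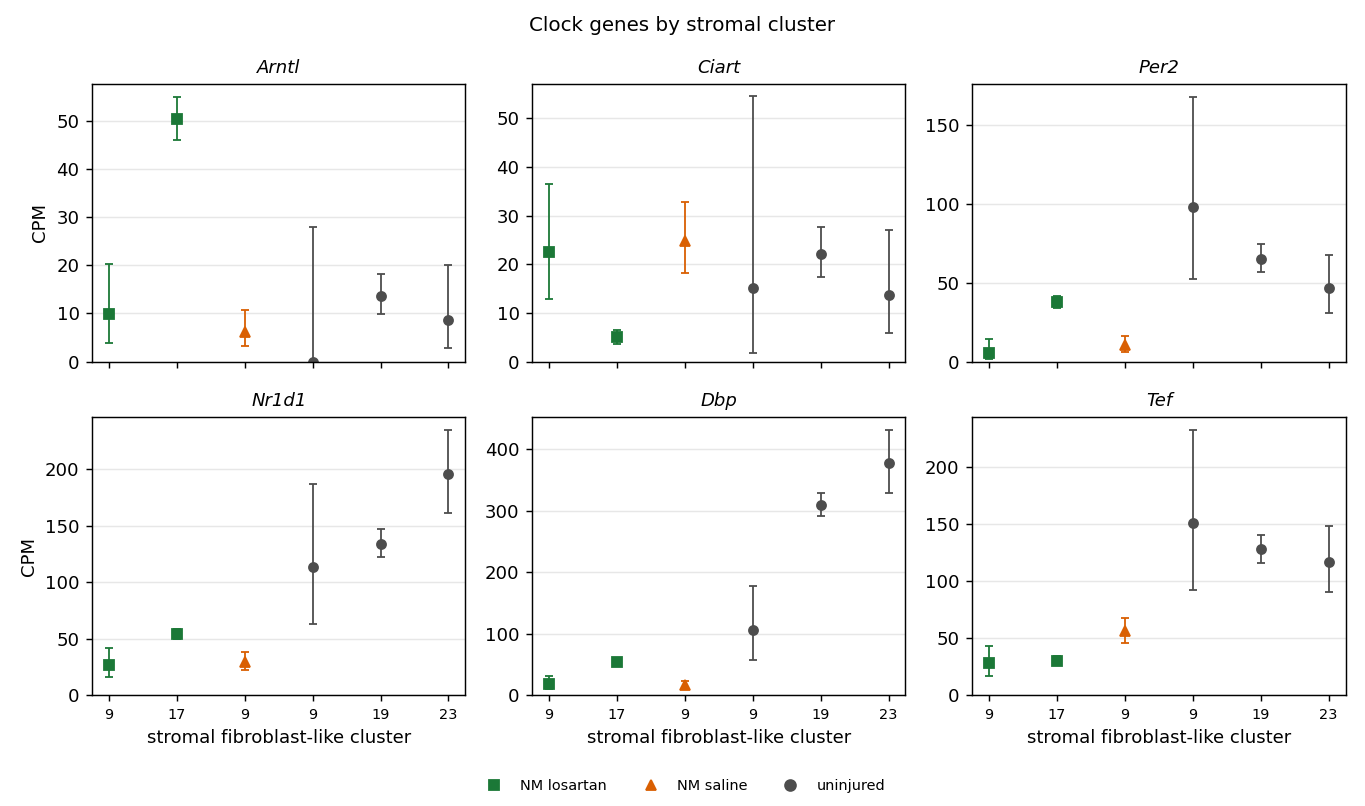
Level in CPM of Arntl, Ciart, Per2, Nr1d1, Dbp and Tef in each stromal fibroblast-like cluster of at least 50 cells, by library, with exact Poisson 95% intervals that cover counting error only. In cluster 9 the losartan and saline points for Dbp lie at 18.2 and 15.96 CPM, and in the uninjured clusters Dbp lies between 106 and 378 CPM.

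Mural-like cells, which wrap small vessels, could be compared between losartan (55 cells) and uninjured (83 cells). Of the 10 genes, 2 were lower and 1 was higher, where 9.59% of 10458 genes were lower and 13.8% higher. Dbp was at 24.0 CPM in losartan (13 UMIs) and 135 CPM in uninjured (50 UMIs), 5.63-fold lower (3.01 to 11.3). Hlf was at 3.69 CPM in losartan (2 UMIs) and 91.7 CPM in uninjured (34 UMIs), 24.9-fold lower (6.38 to 214). Arntl was at 53.5 CPM in losartan (29 UMIs) and 2.70 CPM in uninjured (1 UMI), a ratio of 19.8 (3.29 to 809). Nr1d1, in contrast to the other classes, was at 38.7 CPM in losartan and 32.4 CPM in uninjured, with an interval that held 1. If the epithelial RNA seen in uninjured mural-like cells (5.33% of their UMIs, from epithelial markers) carries Hlf in proportion, it would make up 31.5 of the 91.7 CPM. Mural markers summed to 7666 CPM in losartan and 19238 CPM in uninjured, with all 10 detected in both. Stromal fibroblast markers summed to 2273 CPM in losartan and 993 CPM in uninjured, with 10 and 9 of 11 detected, Pdgfra at 0 in both libraries and Cd34 at 0 in uninjured. Of 12 immediate early genes 9 were lower in losartan and none was higher, with a median log2 ratio of -1.33 beside 0.13 for all genes. The part of these values in the mural differences was not tested.

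Schwann-like cells were named for markers of Schwann cells, the glia of corneal nerves. They were few and shallow, with 125, 67 and 97 cells in losartan, saline and uninjured. Cluster 20 held most of them in the injured libraries and cluster 24 in the uninjured library. In losartan and in saline, 6 of the 9 measured genes were lower than in uninjured and none was higher, where 38.1% of 10819 genes were lower and 15.2% higher in losartan, and 30.3% lower and 17.8% higher in saline. Dbp was at 17.5 CPM in losartan (7 UMIs), 20.9 CPM in saline (4 UMIs) and 67.8 CPM in uninjured (18 UMIs). Nr1d1 was at 12.5 CPM in losartan (5 UMIs), 26.2 CPM in saline (5 UMIs) and 86.7 CPM in uninjured (23 UMIs). Tef had 6 UMIs in losartan, 0 in saline and 20 in uninjured, which makes it at least 4.8-fold lower in saline against a floor of 3 counts. Hlf was at 15.0 CPM in losartan, 36.6 CPM in saline and 109 CPM in uninjured, of which 56.2 CPM would come from an epithelial share of 9.51%. Between losartan and saline, 1 of the 9 genes was higher and 1 lower, where 7.98% of all genes were higher and 21.1% lower. They were Tef, with 6 UMIs in losartan against 0 in saline, which a floor of 3 counts does not set apart, and Hlf, at 15.0 CPM in losartan against 36.6 CPM in saline, with an interval of the ratio that held 1 (0.113 to 1.42). Schwann markers summed to 272 CPM in losartan, 1523 CPM in saline and 12234 CPM in uninjured, with all 9 detected in each library. Stromal fibroblast markers summed to 8761 CPM in losartan, 5452 CPM in saline and 803 CPM in uninjured, with 11, 11 and 7 of 11 detected and Pdgfra, Angptl7, Cd34 and Fbln1 at 0 in uninjured. The injured cells of this class thus carried more fibroblast than Schwann marker RNA, and the uninjured cells more Schwann marker RNA. Of 12 immediate early genes 12 were lower in losartan and 11 in saline than in uninjured. The part of these values in the Schwann-like differences was not tested. Most calls in this class also depended on the processing. Nr1d1 and Hlf in losartan and Nr1d1 and Tef in saline stayed past the limit against uninjured under every alternative run, and the others did not.

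The classes were then set side by side to see whether a library moved as a whole. For losartan against uninjured, in 4 classes, the ratios of Dbp and Hlf lay below 1 with their whole interval in all 4. Nr1d1, Nr1d2 and Tef did so in 3 of 4, with mural-like cells the exception, and Per3 in 2 of 4. Arntl lay above 1 with its whole interval in stroma and mural-like cells and held 1 in the epithelium and in Schwann-like cells. For saline against uninjured, in 3 classes, Dbp, Hlf, Nr1d1 and Nr1d2 lay below 1 with their whole interval in all 3, and Tef was lower in all 3. The stromal value of Dbp in this comparison is the one the genes were selected on, so it adds nothing to that count. Arntl lay below 1 in the epithelium alone and held 1 in the other classes. Schwann-like ratios rested on at most 29 UMIs per gene and library, and most calls there ended under some processing alternative. For saline, the Schwann-like log2 ratio of Hlf was -0.52 with free RNA subtracted. That of Nr1d2 was -0.45 with at least 200 genes per cell. The injured cells of that class also carried more fibroblast than Schwann marker RNA, so its ratios set unlike cells side by side. Per2 and Ciart did not move alike: in the epithelium their ratios to uninjured lay above 1 in both injured libraries, while in the stroma Per2 lay below 1 in both and Ciart lay below 1 in losartan.

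The estimated sizes varied between classes where directions did not, and a difference in size between classes was not tested. The log2 ratio of Dbp ran from -2.43 in stroma to -1.70 in Schwann-like cells for losartan against uninjured, and from -3.84 in stroma to -1.49 in Schwann-like cells for saline. That of Hlf ran from -3.57 in epithelium to -1.39 in stroma for losartan and from -3.85 to -1.23 in the same classes for saline. Schwann-like Dbp rested on 7 losartan, 4 saline and 18 uninjured UMIs. For losartan its ratio interval (0.0909 to 0.646) held the whole stromal interval (0.156 to 0.190). For saline its interval (0.0760 to 0.937) lay just above the stromal one (0.0396 to 0.0750). All these comparisons against uninjured share the 1 uninjured library. Fewer cells expressing a gene and less RNA per cell cannot be told apart in such sums.

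**Figure D3:**
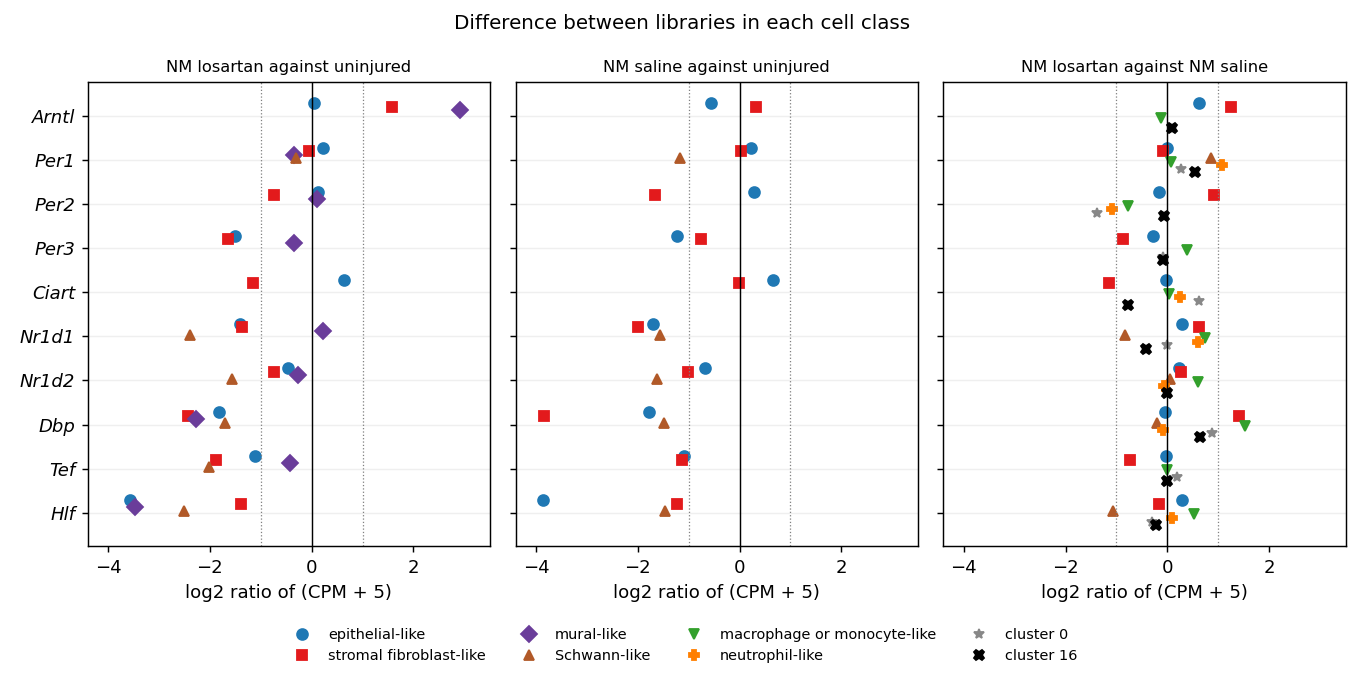
Log2 ratio of CPM + 5 for each clock gene (rows) between libraries, 1 panel per comparison and 1 symbol per cell class; classes with under 10 UMIs in both libraries together, or 0 in either, and dendritic-like cells are not drawn, and dotted lines mark the 2-fold limit. Dbp and Hlf lie left of 0 in every class drawn against uninjured, while Arntl reaches 2.92 in mural-like cells.

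Immune cells came almost wholly from the injured libraries, so they compare losartan with saline only. In macrophage or monocyte-like cells (398 in losartan and 662 in saline), 1 of 7 measured clock genes was higher and none lower, where 1.71% of 9105 genes were higher and 1.83% lower. That gene was Dbp, at 20.2 CPM in losartan (96 UMIs) and 3.72 CPM in saline (39 UMIs), 5.43-fold higher (3.70 to 8.09). Nr1d1 stood at 10.1 CPM in losartan and 4.01 CPM in saline, with a log2 ratio of 0.74 on the CPM + 5 scale, under the limit. Arntl, at 20.2 CPM in losartan and 22.4 CPM in saline, had an interval that held 1. Summed epithelial markers in these cells were 418 CPM in losartan and 168 CPM in saline, and summed fibroblast markers 102 CPM in losartan and 20.03 CPM in saline. Epithelial RNA in proportion would give 0.232 CPM of the 20.2 CPM of Dbp in losartan.

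Neutrophil-like cells (1122 in losartan and 830 in saline) held hardly any RNA of the output factors, with 4 UMIs of Dbp in losartan and 6 in saline. Only Per1 and Per2 were measured, and they ran in opposite directions: 1 was higher, where 5.73% of 7140 genes were, and 1 lower, where 0.924% were. Per1 was at 55.4 CPM in losartan (162 UMIs) and 23.7 CPM in saline (79 UMIs), 2.34-fold higher (1.77 to 3.10). Per2 was at 25.0 CPM in losartan (73 UMIs) and 58.8 CPM in saline (196 UMIs), 2.36-fold lower (1.79 to 3.13). Cluster 0, led by Ccl3, Ccl4 and Cxcl2 and left without a cell type name, held 246 cells in losartan and 2142 in saline. There 1 of 3 measured genes was lower and none was higher, where 2.76% of 7537 genes were lower and 2.71% higher. It was Per2, at 17.8 CPM in losartan (12 UMIs) and 54.5 CPM in saline (458 UMIs), 3.07-fold lower (1.74 to 5.98). These 3 calls each ended under at least 1 alternative, with log2 ratios of 0.56 for neutrophil Per1 at a coarser clustering (resolution 0.4), -0.98 for neutrophil Per2 with stricter cell filters and -0.75 for Per2 in cluster 0 after thinning to 1500 UMIs. Per2 was thus lower in losartan in 7 of 8 classes by CPM, in 5 of them with the whole interval below 1. Stroma summed as a class was the exception, at 36.1 CPM in losartan and 16.9 CPM in saline, but its clusters differed between these libraries. Within stromal cluster 9, Per2 was at 5.61 CPM in losartan (4 UMIs) and 10.3 CPM in saline (20 UMIs). That ratio was 0.544, with an interval that held 1 (0.135 to 1.62). Outside cluster 9, stromal Per2 was at 38.2 CPM in losartan and 42.9 CPM in saline (21 UMIs).

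In dendritic-like cells (75 in losartan and 94 in saline), 0 of 3 measured clock genes passed the limit, where 4.29% of all genes did. Cluster 16, led by Polr2a, Procr and Trp53inp1, held 240 cells in losartan and 132 in saline and was not given a name. There 0 of the 10 genes passed the limit, where 5.44% of all genes did. Nr1d1 was at 44.2 CPM in losartan and 60.7 CPM in saline, and Arntl at 40.1 CPM in losartan and 37.3 CPM in saline. All 10 log2 ratios in that cluster lay between -0.76 and 0.65.

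**Figure D4:**
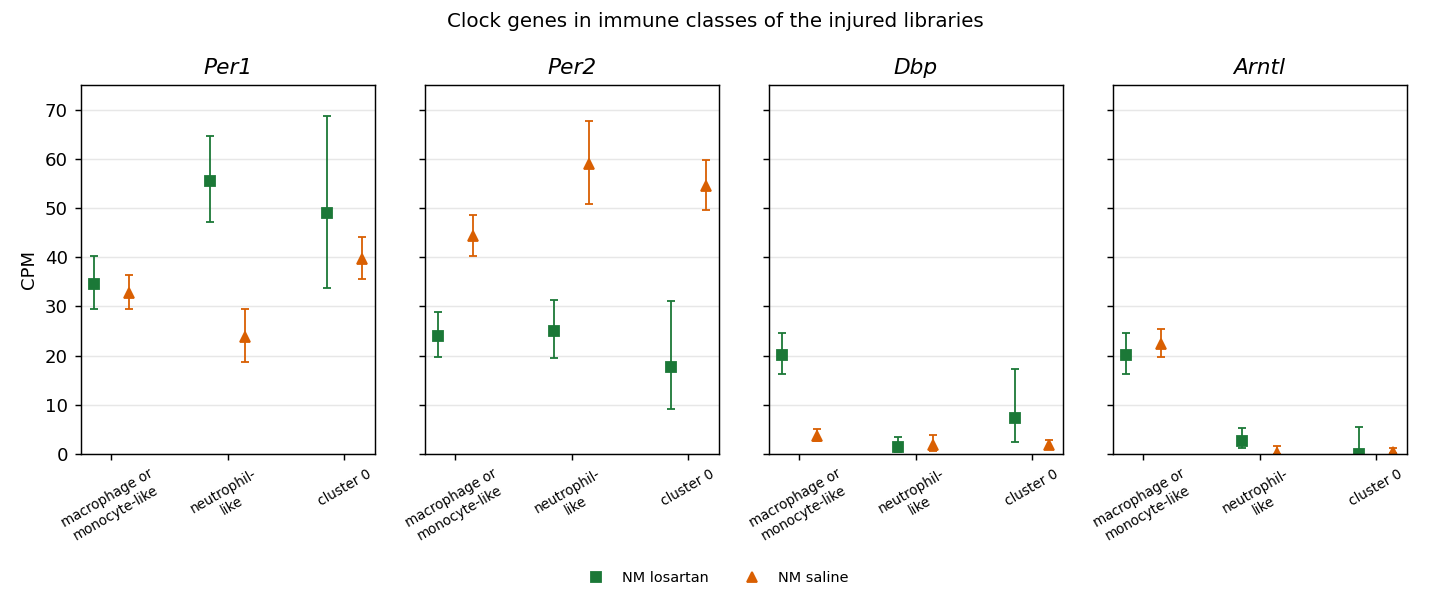
Level in CPM of Per1, Per2, Dbp and Arntl in macrophage or monocyte-like cells, neutrophil-like cells and cluster 0 of the losartan and saline libraries, with exact Poisson 95% intervals that cover counting error only. Per2 is lower in losartan in all 3, at 24.0, 25.0 and 17.8 CPM, against 44.3, 58.8 and 54.5 CPM in saline.

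Inside the uninjured epithelium the clock genes varied to different degrees. Dbp was nearly level over 6 of the 7 clusters, between 96.1 and 111 CPM, and lower in cluster 13, at 48.1 CPM. Cluster 13 was led by Asprv1, Psca and Muc4, genes of surface epithelium. Arntl ran from 2.12 CPM in cluster 13 to 37.7 CPM in cluster 2, a 17.8-fold span. Hlf ran from 90.7 CPM in cluster 13 to 1026 CPM in cluster 2, an 11.3-fold span, and it was the leading gene of cluster 2, so that part of its span was used to form the clusters. Nr1d2 ran from 17.5 CPM in cluster 13 to 88.7 CPM in cluster 12, and Tef from 18.6 to 82.3 CPM in the same clusters. Cluster 12 was led by Gpha2, with Krt15 also among its leading genes, both known from limbal epithelium. Nr1d1 was highest in cluster 1, at 157 CPM, a cluster led by the immediate early gene Atf3, and lowest in cluster 6, at 70.0 CPM. The dividing cells of cluster 10, led by Cenpf and Top2a, had 105 CPM of Dbp and 130.4 CPM of Nr1d1, inside the range of the other clusters.

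The injured clusters lay below this range for several genes. Dbp was at 28.9 and 17.7 CPM in clusters 4 and 5 of losartan, and at 25.7 and 23.9 CPM in the same clusters of saline, against a lowest uninjured value of 48.1 CPM. Nr1d1 was at 35.6 and 41.5 CPM in clusters 4 and 5 of losartan and 26.0 and 35.0 CPM in saline, against a lowest uninjured value of 70.0 CPM. Hlf was at 68.5 and 17.5 CPM in clusters 4 and 5 of losartan and 53.0 and 22.2 CPM in saline, against a lowest uninjured value of 90.7 CPM. Tef and Arntl overlapped: Tef was at 26.4 CPM in cluster 4 of losartan and 27.4 CPM in saline, above the 18.6 CPM of uninjured cluster 13. Arntl was 1.58 times as high in losartan as in saline in cluster 4 (1.38 to 1.81) and 1.84 times as high in cluster 5 (1.58 to 2.15).

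**Figure D5:**
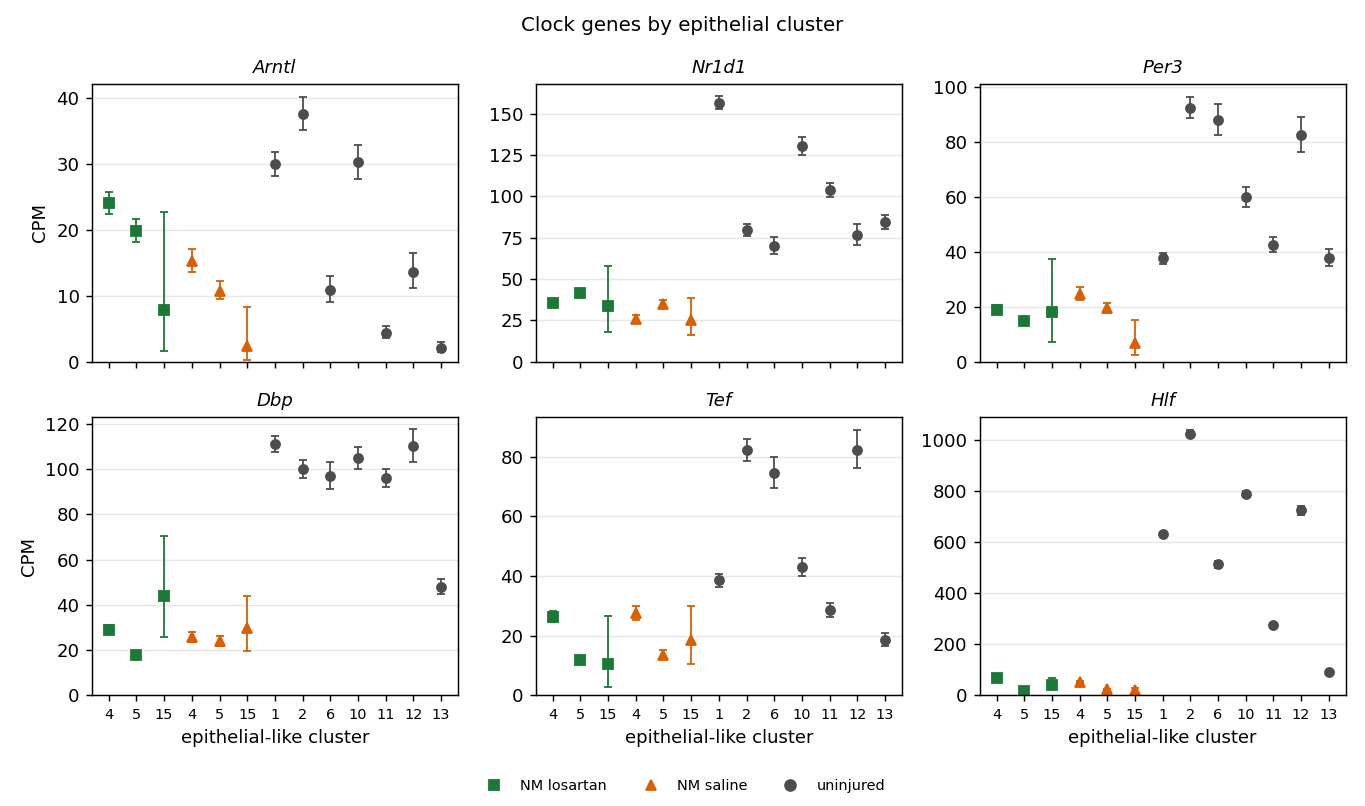
Level in CPM of Arntl, Nr1d1, Per3, Dbp, Tef and Hlf in each epithelial-like cluster, by library, with exact Poisson 95% intervals that cover counting error only. For Dbp the injured points lie between 17.7 and 44.1 CPM and the uninjured points between 48.1 and 111 CPM, while for Arntl the libraries overlap.

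The other genes of the loop were read from lists. Of all 9644 measured epithelial genes, 7.35% were lower and 7.46% higher in losartan against uninjured, and 7.15% lower and 9.85% higher in saline. In the epithelium 0 of 4 genes of the activating arm (Arntl, Clock, Npas2 and Arntl2) passed the limit in either injured library against uninjured; Clock was at 101 CPM in losartan, 92.4 CPM in saline and 121 CPM in uninjured. Of 7 measured period and cryptochrome repressors, 2 were lower in each injured library, Per3 and Bhlhe40, and Cry1 was higher in saline, at 17.6 CPM against 6.28 CPM in uninjured. Bhlhe40, which competes for E-boxes, was at 123 CPM in losartan, 132 CPM in saline and 376 CPM in uninjured. Rora, which opposes the REV-ERB receptors at ROREs, was also lower, at 95.1 CPM in losartan, 60.02 CPM in saline and 379 CPM in uninjured, while Nfil3, the D-box repressor, was not past the limit. Of 5 measured clock kinases and ligases, 1 was higher in each injured library: Csnk1e, which phosphorylates PER proteins, at 79.2 CPM in losartan, 94.9 CPM in saline and 35.5 CPM in uninjured. Of 9 measured clock-controlled output genes, 1 was lower in each: Tsc22d3, also induced by glucocorticoids, at 17.7 CPM in losartan, 23.7 CPM in saline and 58.2 CPM in uninjured.

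In the stroma, 3 of 13 output genes were lower and 1 was higher in losartan against uninjured, and 5 were lower in saline. Of all 10840 measured stromal genes, 7.68% were lower and 7.41% higher in losartan, and 11.3% lower and 7.5% higher in saline. Tsc22d3, Nampt and Cys1 were lower in both, and Wee1 and Tspan4 in saline, while Pfkfb3 was higher in losartan. Tspan4, a tetraspanin, was at 210.1 CPM in losartan, 49.8 CPM in saline and 168 CPM in uninjured stroma. Bhlhe41, close kin of Bhlhe40, was lower in both injured libraries, at 31.01 CPM in losartan, 22.2 CPM in saline and 74.5 CPM in uninjured stroma.

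Genes that peak near Arntl in other mouse tissues and genes that peak in the opposite part of the day were counted apart. In the epithelium 5 of 9 measured genes of the opposite group were lower in each injured library, with a median log2 ratio of -1.11 in losartan and -1.09 in saline. Of all genes, 7.35% were lower and 7.46% higher in losartan and 7.15% lower and 9.85% higher in saline, with medians of -0.03 and 0.03. Of 5 measured genes of the Arntl group, 0 passed the limit in losartan and 1, Cry1, was higher in saline. In the stroma 7 of 11 genes of the opposite group were lower in each injured library, with medians of -1.16 in losartan and -1.14 in saline. Over all stromal genes, 7.68% were lower and 7.41% higher in losartan and 11.3% lower and 7.5% higher in saline. The medians of all genes there were -0.10 in losartan and -0.33 in saline. Of 5 measured genes of the Arntl group in the stroma, 2 were higher in losartan, Arntl and Nfil3, and 1 was higher in saline, Npas2. Nfil3 was at 31.1 CPM in losartan, 9.05 CPM in saline and 8.03 CPM in uninjured stroma. Npas2, a stand-in for CLOCK, was at 17.1 CPM in losartan, 37.0 CPM in saline and 12.4 CPM in uninjured stroma. The opposite group holds Dbp, Tef, Hlf, Nr1d1, Nr1d2, Ciart and the Per genes, and the other holds Arntl, so these counts are not separate evidence.

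Glucocorticoids also reset clock genes, Per1 among them, so a list of 9 genes they induce was counted. In the epithelium 2 were lower in losartan and 3 in saline against uninjured, with medians of -0.30 and -0.11. Of all genes, 7.35% were lower in losartan and 7.15% in saline, with medians of -0.03 and 0.03. Zbtb16 was at 0.488 CPM in losartan, 0.187 CPM in saline and 18.3 CPM in uninjured epithelium. In the stroma the list went both ways, with 3 higher and 1 lower in losartan and 2 higher and 4 lower in saline. Over all stromal genes, 7.41% were higher and 7.68% lower in losartan and 7.5% higher and 11.3% lower in saline. Klf9 was at 689 CPM in losartan, 200 CPM in saline and 686 CPM in uninjured stroma. Of the 12 immediate early genes in the stroma, 0 passed the limit in losartan against uninjured, 3 were lower in saline, and 5 were higher in losartan than in saline, Fos among them at 2125 CPM in losartan, 489 CPM in saline and 3094 CPM in uninjured. Among all stromal genes, 12.9% were higher in losartan than in saline. The part of these values in the clock gene differences was not tested.

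The genes whose levels ran most like Dbp over 21 sums of a class in a library (9 classes, levels centred within each class) were Pja1, Oxct1, Pttg1, Slc25a12 and Fads2, with Pearson correlations from 0.87 to 0.90. Among the clock genes the closest to Dbp were Hlf at 0.76, Nr1d1 at 0.75 and Nr1d2 at 0.75, and Arntl was at -0.33. Among those most like Arntl were Gm14636, Rwdd4a, Lsg1 and Pvr, from 0.85 to 0.87. These are descriptions over 6951 genes, and the sums share libraries and depth.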

How the data were processed

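The deposited matrices hold UMI counts per gene and cell barcode, which Cell Ranger 8.0.0 wrote, per the file headers. The submitters' processing notes name GRCm38 as the build. The annotation release and the counting of introns are not given in the sources used here. Per the labels' protocols, the anterior segment was freed of lens, retina, iris and most conjunctiva and digested with liberase and trypsin.

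Cells with at least 500 genes and at most 20% mitochondrial UMIs were kept. Doublets were scored against 2 simulated doublets per cell and removed at 0.8% per 1000 barcodes, taking 243 cells from losartan, 334 from saline and 1334 from uninjured. Counts were scaled to 10000 per cell, and all libraries were clustered together on 2000 variable genes, 30 principal components and 20 neighbours (leidenalg 0.10.2, resolution 0.8), with no batch correction. Clusters were named from marker lists. Unnamed cells (1 in losartan, 12 in saline and 2066 in uninjured, mostly shallow clusters with epithelial markers) entered no class.

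UMIs were summed per class and library and divided by the class total (CPM). CPM intervals are exact Poisson and ratio intervals exact conditional binomial. A class needed 50 cells in a library. With 1 library per group no test was made. On counts simulated with Poisson error alone for saline and uninjured epithelium, 94.7% of ratio intervals over 9718 genes held the true value. This checks the calculation only. The simulated counts had no added spread between cells, so it says nothing about coverage in the real data. Gene positions are from GENCODE on GRCm38. All 10 clock genes and the genes of fixed lists are described; for Dbp and Arntl the 5 most correlated genes with a mean of 20 CPM or more were taken, of which 1 is not reported here. The members and lists were chosen with earlier results of these data known.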

Additional observations from a re-analysis of the deposited data

Results flagged for a closer look

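Per2 differed between classes in both injured libraries. Its log2 ratio was 0.28 in epithelium and -1.66 in stroma for saline against uninjured, and 0.12 in epithelium and -0.75 in stroma for losartan against uninjured. Per2 also stood apart between losartan and saline, at 0.91 in stroma and -1.39 in cluster 0. The stromal value compares different clusters. Within stromal cluster 9 the log2 ratio of Per2 was -0.53, on 4 losartan and 20 saline UMIs, with a ratio interval that held 1. Outside cluster 9, stromal Per2 was at 38.2 CPM in losartan and 42.9 CPM in saline. Ciart was at 0.63 in epithelium and -1.16 in stroma for losartan against uninjured. Per3, for losartan against saline, was at 0.38 in macrophage or monocyte-like cells, on 39 UMIs in all, and -0.88 in stroma. Nr1d1 was at 0.74 in macrophage or monocyte-like cells and -0.42 in cluster 16 for the same pair. Each pair of classes was picked out because the counting intervals of the 2 classes lay on opposite sides of 1. The difference between classes itself was not tested, since each class has 1 library per group.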

How the results depend on the processing

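The 5 epithelial genes that were lower against uninjured stayed lower and past the limit under all 13 alternatives in both injured libraries. The alternatives changed the filters, doublet removal, clustering, pseudocount, scaling, thinning to 1500 UMIs and subtraction of free RNA, or pooled all kept cells. For losartan against saline epithelium, 1 gene passed at a 1.5-fold limit (6.72% of all genes), against 0. For saline against uninjured stroma, median-of-ratios scaling left 3 genes past the limit, against 6. For losartan against saline stroma, the count was 7 at a 1.5-fold limit (45.5% of all genes), 0 with all kept cells pooled and 0 in cluster 9 alone, against 3. Pooling turned the log2 ratio of Per2 for saline against uninjured to 0.96 and that of Ciart for losartan against uninjured to 0.54, since pooling mixes classes. In cluster 9 alone Ciart for losartan against uninjured was 0.45, on 2 uninjured UMIs. In Schwann-like cells 4 of the 6 calls in each injured library against uninjured ended. In losartan the log2 ratios nearest 0 were -0.75 for Dbp with the clock genes out of the clustering, -0.79 for Nr1d2 and -0.69 for Tef after thinning, and -0.996 for Per2 as a mean over cells. In saline they were -0.98 for Dbp as a mean over cells, -0.82 for Per1 with median-of-ratios scaling, -0.45 for Nr1d2 with at least 200 genes per cell and -0.52 for Hlf with free RNA subtracted. Between losartan and saline Schwann-like cells, Tef reached 0.36 with at least 200 genes per cell and Hlf -0.21 with the clock genes out of the clustering. Restricting stroma to cluster 9, counting shallow clusters as epithelial and leaving out cluster 15 were chosen after seeing the data. Leaving the clock genes out of the clustering moved 0 of 130 log2 ratios beyond their intervals, and thinning moved 52 of 130 without reversing any. No paired analysis was possible because each group has 1 library.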
